A study of Mus musculus with 12 samples.

Results

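The genes described here encode the proteins of central myelin and other products that mature oligodendrocytes make. They were chosen by gene symbol, as 31 of the 23183 genes that each library lists, and all 31 were listed and could be tested in both regions. By role, 14 belong to myelin membrane and structure, 4 to lipid synthesis or metabolism, 2 are transcription factors and 11 are other genes of mature oligodendrocytes. RNA came from the cortex and from the hippocampus of male C57BL/6 mice, bought at 7 weeks of age and kept for 1 week before treatment. The irradiated group (IR) received a single dose of 10 Gy to the whole brain, and the control group (Con) was sham-irradiated, that is, placed on the same platform without a dose. Tissue was taken 3 months later, and 3 libraries were made from each group and region, which gives 12. The question put to these genes was whether their level differed between IR and Con in either region, and how that difference compared with the spread between libraries. The labels name no transgene or other treatment, and strain and sex were the same in both groups.

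Oligodendrocytes wrap axons in layers of compacted membrane that speed conduction and feed the axon. Compaction rests on basic and adhesive proteins such as myelin basic protein, and the membrane is rich in galactolipids, which enzymes such as *Ugt8a* and *Gal3st1* make. The program is switched on when precursors exit the cell cycle, with *Myrf* among the transcription factors that drive it, and precursors are among the dividing cells of the adult brain, which are sensitive to radiation. In bulk tissue, fewer oligodendrocytes and less RNA per oligodendrocyte cannot be told apart.

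Values were FPKM, fragment numbers divided by transcript length and by the library's mapped fragments, so that levels can be compared between genes. Summed FPKM ranged from 359800 to 393400 per library. The depth in reads is unknown, and steps between the lowest values put the other 10 libraries at 1.003 to 1.121 times the depth of Con 1 of their region. The sum of 10 choroid plexus genes was 444.5 FPKM in cortex IR 2 and 4.17 to 31.2 FPKM in the other cortex libraries, and it was 1083 FPKM in hippocampus Con 2 and 1672 FPKM in hippocampus IR 1 against 25.3 to 69.0 FPKM in the other hippocampus libraries. These 3 libraries therefore stood apart in that tissue's genes, and results are given below without them. The labels number the samples of a group without naming the animals, so p values measure the spread between these samples.

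Myelin genes were abundant in every library. The 31 genes took between 0.402% and 0.615% of all FPKM. *Mbp*, which encodes myelin basic protein, was the highest of them in every group, at 715 ± 76.3 FPKM in cortex Con and 687 ± 70.6 FPKM in hippocampus Con (SD, n = 3). In cortex Con it was followed by *Plekhb1*, a membrane-associated protein with a pleckstrin homology domain, at 112 ± 11.1 FPKM, by *Qdpr*, which regenerates tetrahydrobiopterin, at 99.8 ± 16.4 FPKM, by *Cnp*, the cyclic nucleotide phosphodiesterase of non-compact myelin, at 92.4 ± 11.1 FPKM, and by *Sept4*, a septin, at 91.2 ± 9.12 FPKM. *Plekhb1* and *Qdpr* also followed *Mbp* in hippocampus Con, at 129 ± 12.1 and 110.8 ± 16.3 FPKM, ahead of *Trf*, the iron carrier transferrin, at 86.4 ± 1.80 FPKM. The lowest mean in cortex Con was that of *Anln*, which encodes the actin-binding protein anillin, at 3.89 ± 0.22 FPKM. Most neighbours in this order did not differ beyond their spread. Neighbouring genes overlapped between their 3 libraries in 21 of 30 pairs in cortex Con, in 24 of 30 in hippocampus Con and in 26 of 30 in each IR group.

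Markers of Schwann cells, which make the myelin of peripheral nerves, were mostly low. Of 6 such genes, 3 to 4 stayed under 0.5 FPKM in every library of a group. *Drp2*, which is also listed for Schwann cells, was at 17.0 ± 1.95 FPKM in cortex Con and 13.3 ± 1.09 FPKM in hippocampus Con. *Egr2*, of the same list, was at 0.28, 2.79 and 2.68 FPKM in cortex Con and at 4.41, 4.53 and 8.35 FPKM in cortex IR. Its hippocampus values were 0.21, 0.71 and 0.42 FPKM in Con and 0.50, 0.61 and 1.58 FPKM in IR.

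Some of these genes share exon sequence with a neighbour, and whether the counting used strand is not stated. In the GENCODE M21 annotation of GRCm38, *Trf* shares 63.5% of its exon bases with *Gm20425* on the same strand, and *Evi2a*, which lies inside *Nf1*, shares 19.2% with *Evi2*. *Qdpr* shares 18.6% with an antisense gene and *Cryab* 17.0% with *Hspb2* on the opposite strand. Values of these 4 genes are therefore uncertain where reads could be assigned to either gene.

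The myelin genes varied more between libraries of one group than most genes did, and they varied together. The standard deviation of log2(FPKM + 1) about the group means had a median of 0.15 over the 31 genes in the cortex, against 0.09 over all 14065 genes tested there, and of 0.20 in the hippocampus, against 0.11 over 14043 genes. In each region, 26 of the 31 lay above the median of all genes. All tested genes include low ones, whose spread the added 1 FPKM narrows, and the comparison was not matched for level. When a single library was left out, the median of the 31 stayed between 0.13 and 0.17 in the cortex, lowest without IR 2, and between 0.17 and 0.22 in the hippocampus, lowest without IR 3. The steadiest genes in the cortex were *Gsn* (0.05), which encodes the actin-severing protein gelsolin, *Ndrg1* (0.07), a stress-responsive gene needed for myelin upkeep, and *Gal3st1* (0.07), the sulfotransferase that makes sulfatide. The most variable there were *Qdpr* (0.22), *Ppp1r14a* (0.26), an inhibitor of myosin phosphatase, and *Opalin* (0.57), a transmembrane protein of the paranodal loops. In the hippocampus *Evi2a* (0.06), a membrane protein, *Myrf* (0.08) and *Car2* (0.09), carbonic anhydrase II, varied least. There *Ppp1r14a* (0.34), *Apod* (0.35), a lipid-binding apolipoprotein, and *Opalin* (0.38) varied most.

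After subtracting the group means, the mean Pearson correlation between pairs of the 31 genes over the 6 libraries was 0.55 for cortex and 0.44 for hippocampus libraries, whereas over all genes tested it was 0.00 and 0.01. The correlation was above 0 in 435 of 465 cortex pairs and in 393 of 465 hippocampus pairs. A single axis held 68.3% of the variance of the 31 genes in cortex libraries and 50.9% in hippocampus libraries, against 34.1% and 40.5% for all genes. These are descriptions, since the points are the same 6 libraries for every pair. The genes that followed the others least were *Anln* in the cortex, with a mean correlation of 0.01 with the other members, and *Opalin* and *Nkx6-2*, a homeobox repressor of the oligodendrocyte lineage, in the hippocampus, with -0.10 and -0.06. Those that followed them most were *Fa2h*, which hydroxylates the fatty acids of myelin lipids, in the cortex (0.73) and *Gjb1*, the gap junction protein connexin 32, in the hippocampus (0.65).

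The shared movement belonged to particular libraries. In the cortex, IR 2 was the highest of the IR group for 27 of the 31 genes and lay above the Con mean for all 31, with a median difference of 0.35 on the log2 scale. IR 1 lay above that mean for 21 genes (median 0.11) and IR 3 for 23 (median 0.08), and Con 3 was the lowest of its group for 24. In the hippocampus, IR 3 was the lowest of the IR group for 25 genes, with a median difference of -0.24 from the Con mean, whereas IR 1 was at 0.08 and IR 2 at -0.03. Among the Con libraries there, Con 1 was the highest for 19 genes (median 0.11) and Con 2 the lowest for 21 (median -0.11). The median over all genes tested was within 0.03 of 0 in each of the 12 libraries, which the scaling of the deposited values sets.

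**Figure D1:**
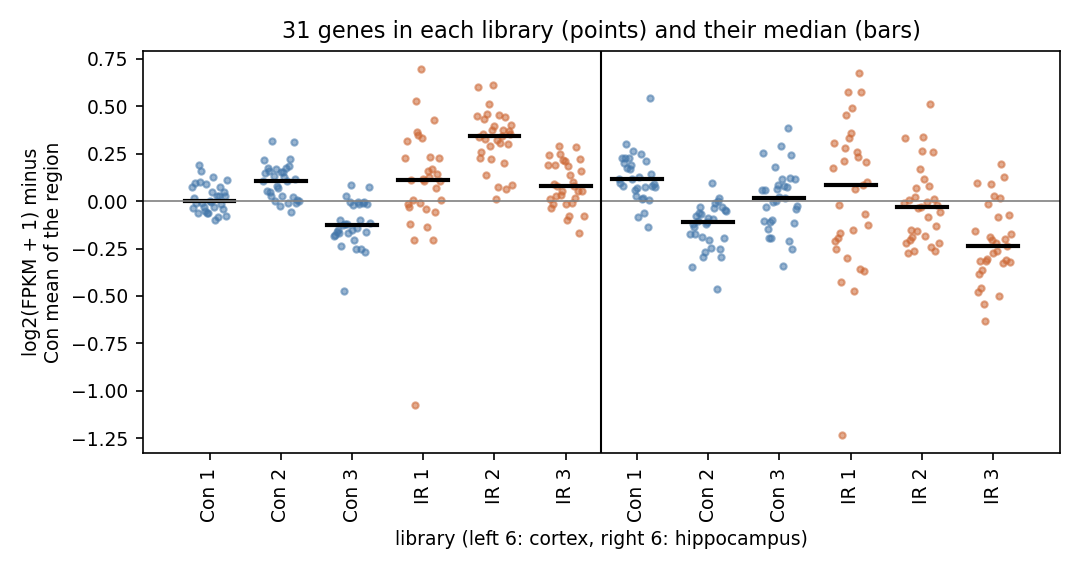
Difference of each of the 31 genes from the mean of the 3 Con libraries of its region, as log2(FPKM + 1), for the 6 cortex libraries (left) and the 6 hippocampus libraries (right), with Con in blue and IR in orange. Each point is a gene and each black bar the median of the library: cortex IR 2 stands highest at 0.35 and hippocampus IR 3 lowest at -0.24.

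In the cortex the myelin genes leaned upward after irradiation, and *Cryab* alone passed correction. *Cryab*, which encodes the small heat shock chaperone alpha-B crystallin and lies at chr9:50751325-50756636 on the plus strand (mm10), was at 62.1, 56.5 and 58.5 FPKM in Con and at 79.6, 80.5 and 72.0 FPKM in IR. All 3 IR libraries lay above all 3 Con libraries. The gene rose by a log2 fold change of 0.38 ± 0.06 (SE), from 59.0 ± 2.82 to 77.3 ± 4.68 FPKM (adjusted p = 0.0286). It was the only one of the 31 genes with an adjusted p under 0.05, where 0.725% of the 14065 genes tested in the cortex were called. Without Con 3 the adjusted p was 0.0834, without IR 1 it was 0.148 and without IR 2 it was 0.123, with log2 fold changes between 0.35 and 0.38. Without a filter on low values it was 0.271, without the variance trend and robust prior 0.0868, with all 12 libraries in a single fit 0.1301 and with the library number as a replicate block 0.0556. Without Con 2, *Ermn* passed as well (adjusted p = 0.0439). With the replicate block, *Mobp* passed in place of *Cryab*. No member passed a fold change of 1.5 with an unadjusted p under 0.05, the criterion that the study names, and 0.483% of all genes did.

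Of the 31 genes, 29 had a higher mean in cortex IR, all but *Opalin* and *Nkx6-2*, where 50.5% of all genes tested were higher. The median log2 fold change was 0.18, against 0.00 over all genes. The library medians of the 31 genes varied about their group means with an SD of 0.13. Since the genes varied together, 29 of 31 is not a count of independent observations. An unadjusted p under 0.05 was reached by 11 genes, all of them higher in IR, where 8.16% of all genes were called in that direction. In 10 of the 31 (32.3%) every IR library lay above every Con library, against 11.2% of all genes. The size of the lean rested in part on a single library. Without IR 2 the median was 0.08 with 21 genes higher and 10 lower, and 8 higher genes had an unadjusted p under 0.05 (6.35% of all genes). Overlap is rarer with fewer libraries, and 10 members lay above Con without it, as 15.7% of all genes did. Without IR 3, 17 members were higher with an unadjusted p under 0.05 (6.90% of all genes). Without Con 3 the median was 0.14 with 22 genes higher and 9 lower.

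Among the genes of myelin structure, 13 of 14 were higher in cortex IR (50.5% of all genes) and 5 were higher with an unadjusted p under 0.05 (8.16% of all genes). *Mbp* was at 749.8, 767 and 627 FPKM in Con and at 834, 971 and 811 FPKM in IR. The groups did not overlap, and IR 2 was the highest (log2 fold change 0.29 ± 0.09 SE, adjusted p = 0.210). *Mobp*, which encodes a second basic protein of compact myelin, was at 47.3, 56.5 and 42.7 FPKM in Con and at 60.8, 74.0 and 57.6 FPKM in IR, again without overlap (0.39 ± 0.11, adjusted p = 0.193). *Ermn*, which encodes the cytoskeletal protein ermin of the outer sheath, was at 10.2, 11.3 and 9.32 FPKM in Con and at 15.2, 14.4 and 12.7 FPKM in IR. All IR libraries were above Con, and IR 1 was the highest (0.42 ± 0.08, adjusted p = 0.0629). *Gjb1* was at 5.27, 5.40 and 5.52 FPKM in Con and at 7.23, 8.13 and 6.58 FPKM in IR (0.37 ± 0.08, adjusted p = 0.0856). *Anln* was at 3.68, 4.12 and 3.88 FPKM in Con and at 6.92, 5.34 and 4.69 FPKM in IR (0.43 ± 0.12, adjusted p = 0.155). For *Anln* the highest IR library was IR 1, not IR 2.

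*Mag*, *Mog* and *Tspan2* overlapped between the groups in the cortex. *Mag*, the sialic acid-binding glycoprotein that faces the axon, was at 44.0, 48.3 and 38.9 FPKM in Con and at 43.1, 55.3 and 44.0 FPKM in IR (0.11 ± 0.10, adjusted p = 0.681). *Mog*, the glycoprotein of the outermost lamella, was at 21.1, 20.4 and 17.6 FPKM in Con and at 19.2, 23.2 and 19.1 FPKM in IR (0.05 ± 0.09, adjusted p = 0.841). *Tspan2*, a tetraspanin, was at 19.3, 18.2 and 16.3 FPKM in Con and at 15.4, 22.8 and 18.3 FPKM in IR (0.05 ± 0.12, adjusted p = 0.898). In *Mag*, *Mog* and *Tspan2*, IR 2 was the highest library of all 6, and the sign of the difference turned without it. *Opalin* was at 18.8, 21.1 and 11.8 FPKM in Con and at 7.41, 18.5 and 17.8 FPKM in IR, with IR 1 alone below all Con libraries (-0.29 ± 0.43, adjusted p = 0.827, and 0.11 without IR 1).

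**Figure D2:**
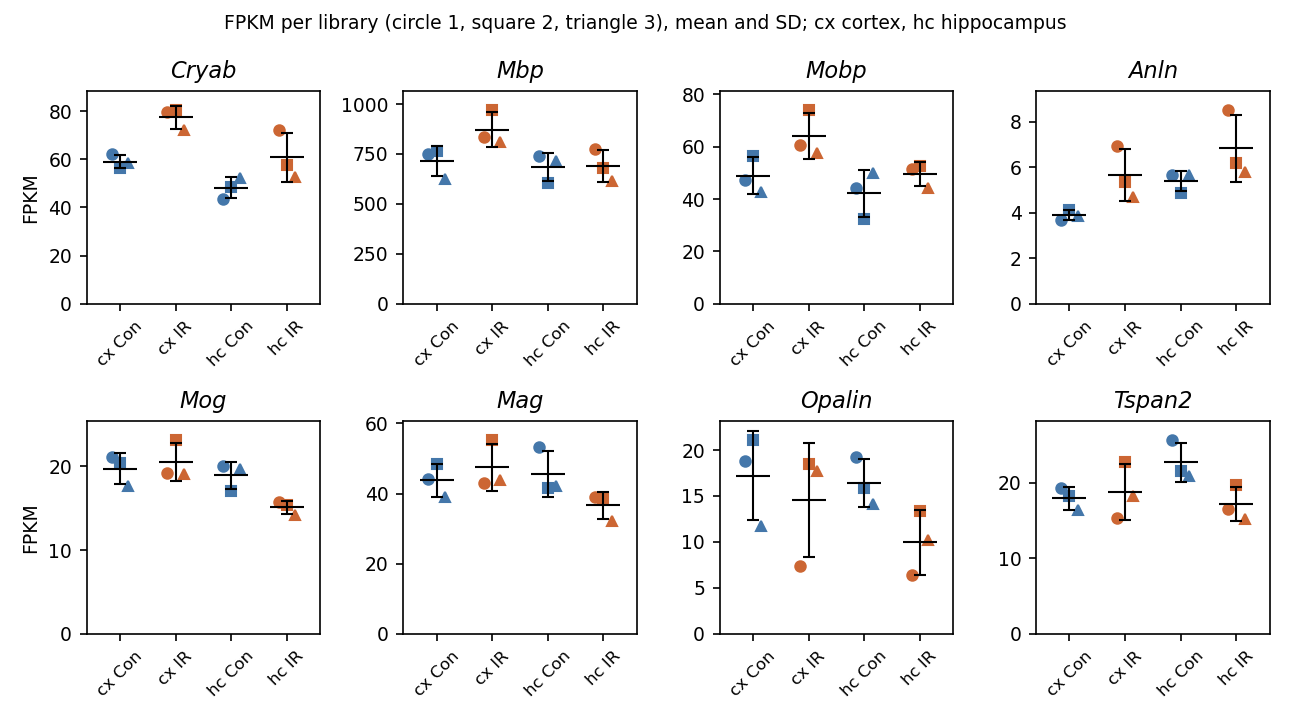
FPKM of 8 of the genes in each library (y axis, starting at 0), with Con in blue, IR in orange, the library number as the marker shape, and the mean and SD of the 3 libraries as a bar. *Cryab* in the cortex lies at 56.5 to 62.1 FPKM in Con and 72.0 to 80.5 FPKM in IR, and *Mog* in the hippocampus at 17.1 to 20.0 FPKM in Con and 14.2 to 15.7 FPKM in IR.

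Of the lipid genes, *Ugt8a*, the galactosyltransferase that makes galactosylceramide, was at 7.52, 7.76 and 8.45 FPKM in Con and at 10.2, 12.6 and 9.31 FPKM in IR, without overlap (0.39 ± 0.10, adjusted p = 0.135). *Fa2h* (0.17 ± 0.11), *Aspa*, which releases acetate from N-acetylaspartate (0.15 ± 0.11), and *Gal3st1* (0.01 ± 0.08) overlapped between the groups. *Myrf*, the activator of myelin genes, was at 6.44, 7.57 and 5.89 FPKM in Con and at 7.49, 9.41 and 7.37 FPKM in IR, with 2 of the IR libraries below Con 2 (0.25 ± 0.11, adjusted p = 0.332). *Nkx6-2* had a log2 fold change of -0.05 ± 0.11. Of the 11 other genes, besides *Cryab*, *Car2* (0.23 ± 0.06), *Plekhb1* (0.25 ± 0.08) and *Ndrg1* (0.25 ± 0.06) did not overlap, with adjusted p values of 0.177, 0.229 and 0.124. *Plekhb1* was at 115, 120.5 and 99.2 FPKM in Con and at 123, 144 and 129.9 FPKM in IR. The smallest differences among these 11 were those of *Qdpr* (0.00 ± 0.13), *Evi2a* (0.01 ± 0.08) and *Gsn* (0.02 ± 0.06).

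In the hippocampus no member passed correction, and the list divided. A lower mean in IR was found for 19 of the 31 genes and a higher mean for 12, where 52.7% of all genes tested were lower. The median log2 fold change was -0.08, against -0.01 over all genes. The library medians of the 31 genes varied about their group means with an SD of 0.13 there. None of the 31 had an adjusted p under 0.05 in limma, where 4 of 14043 genes (0.0285%) did. An unadjusted p under 0.05 was reached by 5 members lower in IR (background 6.89%) and by 1 higher (background 7.06%). In 6 genes every IR library lay below every Con library (background 9.36%), and in 2 every IR library lay above (background 10.5%). The median changed sign without IR 3, to 0.03 with 16 genes higher and 15 lower. Without Con 2 and IR 1, the libraries high in choroid plexus genes, it was -0.20 with 25 genes lower, 5 of them with an unadjusted p under 0.05 (2.35% of all genes). With the 2 libraries then left in each group, 17 members lay below Con without overlap, which 16.8% of all genes also did. Leaving out one library gave between 3 and 8 members lower with an unadjusted p under 0.05, with 3 without Con 1 (4.19% of all genes) or IR 3 (5.01%) and 8 without Con 3 (15.1%), and up to 5 higher, the most without IR 3 (4.54%). Without Con 3, 2 members, *Qdpr* and *Nkx6-2*, had an adjusted p under 0.05, when 880 genes of all tested did.

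In the hippocampus, 6 genes had every IR library below every Con library, namely *Mag*, *Mog*, *Tspan2*, *Opalin*, *Evi2a* and *Qdpr*. *Mog* was at 20.0, 17.1 and 19.7 FPKM in Con and at 15.7, 15.4 and 14.2 FPKM in IR. All IR libraries lay below all Con libraries (-0.30 ± 0.08, adjusted p = 0.247). *Tspan2* was at 25.7, 21.6 and 20.9 FPKM in Con and at 16.6, 19.7 and 15.2 FPKM in IR, also without overlap (-0.39 ± 0.11, adjusted p = 0.261). *Mag* was at 53.2, 41.5 and 42.1 FPKM in Con and at 39.1, 38.7 and 32.2 FPKM in IR. The gap between its groups was small, and Con 1 stood above the other 5 (-0.30 ± 0.11, adjusted p = 0.327, and -0.19 without Con 1). *Opalin* was at 19.2, 15.9 and 14.1 FPKM in Con and at 6.36, 13.4 and 10.2 FPKM in IR. Its difference was the largest of the 31 genes (-0.71 ± 0.23, adjusted p = 0.293), and it was the only member past a fold change of 1.5 with an unadjusted p under 0.05, a criterion that 0.527% of all genes met. It no longer met that criterion without Con 1 (log2 fold change -0.59), without IR 1 (-0.45), without Con 2 and IR 1 (-0.46), without a filter on low values or in the single fit of 12 libraries. *Opalin* lies at chr19:41061710-41077113 and *Mog* at chr17:37010743-37023398, both on the minus strand. *Qdpr* was at 127, 110.1 and 94.8 FPKM in Con and at 85.5, 92.9 and 87.4 FPKM in IR, with the lowest Con library just above the highest IR library (-0.31 ± 0.11, adjusted p = 0.3004, and -0.20 without Con 1). *Evi2a* differed least of the 6, at 11.92, 10.82 and 11.04 FPKM in Con and at 10.22, 10.79 and 9.87 FPKM in IR (-0.12 ± 0.07, adjusted p = 0.457).

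Other genes did not follow them. *Cryab* was at 43.7, 48.5 and 52.3 FPKM in Con and at 72.0, 57.8 and 52.6 FPKM in IR, so that the lowest IR library was just above the highest Con library (0.32 ± 0.12, adjusted p = 0.326, and a log2 fold change of 0.19 without IR 1). *Anln* was at 5.66, 4.87 and 5.67 FPKM in Con and at 8.53, 6.197 and 5.81 FPKM in IR, likewise without overlap (0.28 ± 0.13, adjusted p = 0.380). *Mbp* was at 741, 607 and 712.5 FPKM in Con and at 773, 679.9 and 614 FPKM in IR, and the IR mean lay within the Con range (0.00 ± 0.11, adjusted p = 0.991). *Ermn* was at 14.5, 12.2 and 11.9 FPKM in Con and at 15.0, 13.1 and 10.1 FPKM in IR (-0.03 ± 0.14, adjusted p = 0.942). The IR libraries of *Ermn* spanned the whole Con range. *Apod* had the largest positive difference but a wide spread, at 33.0, 22.4 and 41.1 FPKM in Con and at 50.5, 44.96 and 35.9 FPKM in IR (0.46 ± 0.21, adjusted p = 0.379). *Ppp1r14a* had 1 Con library above the other 5, with 36.4, 19.9 and 20.6 FPKM in Con and 18.9, 20.4 and 19.7 FPKM in IR (-0.31 ± 0.20, adjusted p = 0.497). By role, 9 of the 14 structural genes were lower in IR with a median of -0.17, where 52.7% of all genes tested were lower. Of the 4 lipid genes 3 were higher with a median of 0.07, and both transcription factors were lower. Of the 11 other genes 7 were lower with a median of -0.11.

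**Figure D3:**
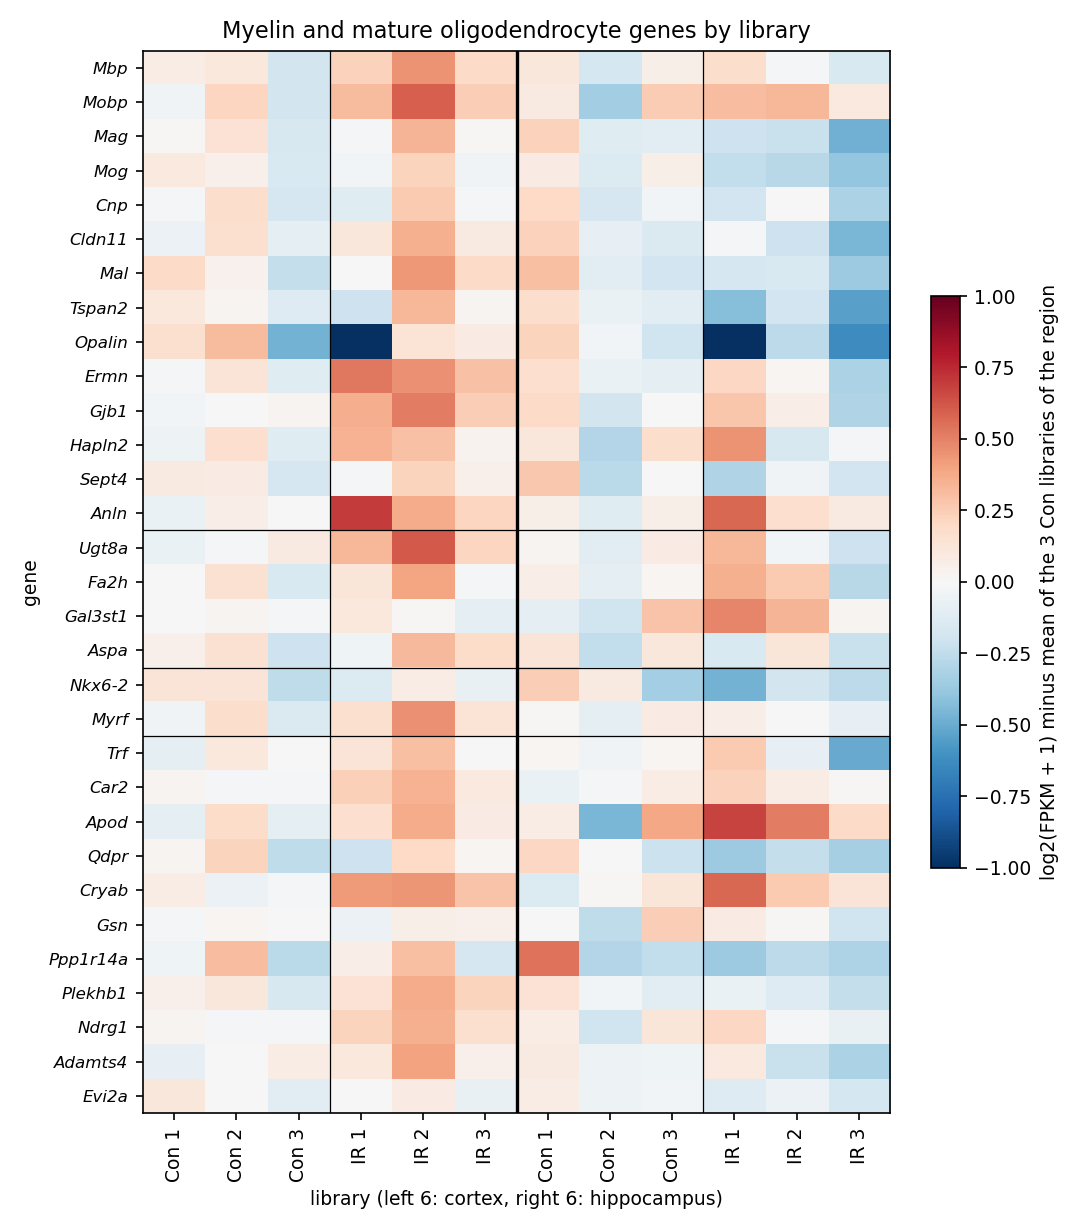
Heat map of the 31 genes (rows, in 4 role groups from top to bottom: structure, lipid, transcription, other) in the 12 libraries (columns), coloured by log2(FPKM + 1) minus the Con mean of the region, with red above and blue below and the scale ending at -1 and 1. The cortex IR 2 column is red throughout, and *Opalin* is darkest blue in IR 1 of both regions, at 7.41 FPKM in the cortex and 6.36 FPKM in the hippocampus.

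The difference between the regions was tested as the hippocampus change minus the cortex change in a single model of all 12 libraries. It was negative for 29 of the 31 genes, all but *Gal3st1* and *Apod*, where 53.7% of the 14577 genes tested were negative. The median was -0.26, against -0.01 over all genes. Here too the genes varied together and are not independent observations. No member had an adjusted p under 0.05 in limma, where 12 genes in all (0.0823%) did, and 6 had an unadjusted p under 0.05, all negative (background 5.58%). That count moved with single libraries. It was 2 without cortex Con 3 (5.04% of all genes), hippocampus Con 1 (4.51%) or hippocampus IR 3 (5.43%, with 1 positive member besides), 3 without cortex IR 2 (4.56%), and 11 without hippocampus Con 2 or IR 1 (4.43% in each). *Plekhb1* had the smallest p (-0.39 ± 0.13, adjusted p = 0.345). Its hippocampus values were 142, 126 and 119 FPKM in Con and 122.5, 117 and 109 FPKM in IR, with overlap, whereas in the cortex all IR libraries were above Con. *Mog* followed (-0.36 ± 0.13, adjusted p = 0.390), then *Ermn* (-0.45 ± 0.17, adjusted p = 0.406) and *Mag* (-0.42 ± 0.17, adjusted p = 0.443). *Cryab* was higher in IR in both regions and showed a difference of -0.06 ± 0.14 between them (adjusted p = 0.904). The median stayed between -0.32 and -0.17 when any single library was left out, with 26 to 29 negative genes, and it was -0.31 without the 3 libraries high in choroid plexus genes.

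**Figure D4:**
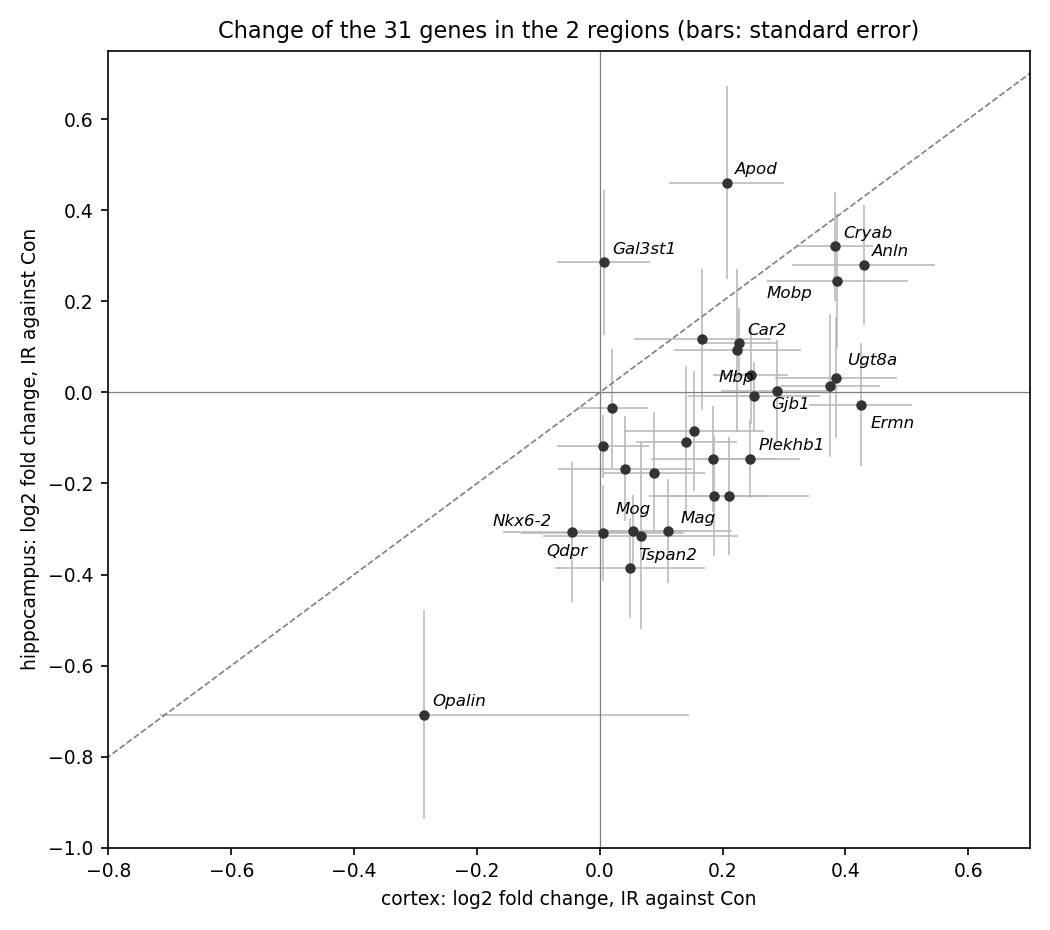
Log2 fold change of IR against Con in the cortex (x axis) and in the hippocampus (y axis) for the 31 genes, with standard errors from limma as bars and the line of equal change dashed. All but *Gal3st1* and *Apod* lie below the dashed line, and the order of the genes is similar along both axes (Pearson r 0.67).

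The order of the genes within the list was similar in the 2 regions. The Pearson correlation between the cortex and the hippocampus log2 fold changes was 0.67 over the 31 genes (Spearman rho 0.63), and 0.56 without *Opalin*. Over the 13649 genes tested in both regions it was 0.23. The regions share no library, but whether equal numbers are the same mouse is not stated, and genes that vary together are not independent points. To set aside what the 31 genes shared in a library, each gene was set against the median of the other 30 in the same library. On that scale 12 genes were higher in IR in both regions and 12 lower in both. *Mobp*, *Anln*, *Cryab* and *Mbp* were among the former, by 0.21, 0.25, 0.20 and 0.11 in the cortex and by 0.32, 0.36, 0.39 and 0.08 in the hippocampus. *Opalin*, *Mog*, *Tspan2*, *Mag*, *Qdpr* and *Nkx6-2* were among the latter. The relative level of *Mog* was lower in IR in both regions, with -0.06 to 0.10 in Con and -0.14 to -0.12 in IR in the cortex, and with -0.03 to 0.05 in Con and -0.34 to -0.16 in IR in the hippocampus. *Opalin* had the lowest relative levels, at -1.19 and -1.32 in IR 1 of the cortex and of the hippocampus, the libraries in which *Anln* and *Ermn* were highest among IR.

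The promoters of 1 gene from the upper and of 2 from the lower end of that order are shown with the motifs of factors known for this lineage. Windows of 250 bases before to 50 bases after a start site were taken from RefSeq (GRCm38.p6) and held 32 promoters of 21 of the 31 genes. *Adamts4*, *Car2*, *Cryab*, *Evi2a*, *Fa2h*, *Mbp*, *Myrf*, *Ndrg1*, *Sept4* and *Trf* had no entry. Both strands were searched for CTGGCAC and CTGGTAC, the letters taken for Myrf, for ACAAAG and ACAATG, those taken for Sox factors, and for CAGCTG, an E-box. None of these motifs contains another. Each sequence is on the strand of its gene, and capitals mark the matches on either strand.
Mobp, chr9:120149492-120149791, plus strand: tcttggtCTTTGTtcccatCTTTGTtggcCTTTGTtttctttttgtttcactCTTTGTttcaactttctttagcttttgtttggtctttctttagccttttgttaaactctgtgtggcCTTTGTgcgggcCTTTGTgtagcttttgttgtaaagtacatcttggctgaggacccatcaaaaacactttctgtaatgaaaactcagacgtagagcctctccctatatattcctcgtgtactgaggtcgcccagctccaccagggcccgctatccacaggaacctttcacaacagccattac
Mog, chr17:37023349-37023648, minus strand: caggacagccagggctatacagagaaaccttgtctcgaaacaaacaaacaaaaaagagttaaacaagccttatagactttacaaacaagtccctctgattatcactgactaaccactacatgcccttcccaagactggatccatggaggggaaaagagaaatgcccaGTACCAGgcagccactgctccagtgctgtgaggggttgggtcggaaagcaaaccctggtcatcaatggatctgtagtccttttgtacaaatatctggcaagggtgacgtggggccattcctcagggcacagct
Opalin, chr19:41077064-41077363, minus strand: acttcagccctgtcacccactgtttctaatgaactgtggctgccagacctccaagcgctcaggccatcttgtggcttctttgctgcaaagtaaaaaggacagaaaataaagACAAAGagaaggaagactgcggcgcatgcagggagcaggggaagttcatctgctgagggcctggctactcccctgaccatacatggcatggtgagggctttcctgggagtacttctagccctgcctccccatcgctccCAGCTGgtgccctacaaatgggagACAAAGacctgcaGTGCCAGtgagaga
The *Mobp* window holds 6 Sox matches and no other, the *Mog* window 1 Myrf match, and the *Opalin* window 1 Myrf match, 2 Sox matches and 1 E-box. A Myrf match was present in 6 of the 32 promoters (18.8%), against 7.10% of 32851 promoters in the table. A Sox match was present in 14 (43.8%), against 28.6%, and the E-box in 6 (18.8%), against 16.3%. Windows of one gene can overlap and hold the same match, and by gene a match was present in 5 of the 21 for Myrf, 11 for Sox and 5 for the E-box. A match is a run of letters and was not tested as a binding site.

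Without irradiation, single myelin genes differed between the regions in both directions. Between hippocampus Con and cortex Con, 15 genes were higher in the hippocampus and 16 lower, with a median log2 difference of 0.00. An adjusted p under 0.05 was found for 7 of the 31 (36.3% of the 14169 genes tested). *Myrf* was higher in the hippocampus, at 10.1, 9.31 and 10.6 FPKM against 6.44, 7.57 and 5.89 FPKM in the cortex (0.53 ± 0.10 SE, adjusted p = 0.00263). *Anln* (0.39 ± 0.09, adjusted p = 0.00976), *Tspan2* (0.32 ± 0.10, adjusted p = 0.0293) and *Ermn* (0.30 ± 0.10, adjusted p = 0.0410) were higher too. *Gal3st1* was lower, at 3.11, 2.79 and 4.33 FPKM in the hippocampus against 5.93, 6.07 and 5.84 FPKM in the cortex (-0.67 ± 0.13, adjusted p = 0.00266), as were *Sept4* (-0.53 ± 0.13, adjusted p = 0.0129) and *Cryab* (-0.29 ± 0.09, adjusted p = 0.0256). *Apod* did not overlap either and missed the threshold (-0.52 ± 0.20, adjusted p = 0.0762). Value columns carry another ending in the cortex files than in the hippocampus files, and what the ending stands for is not given in the sources used here. Leaving out one library left between 4 and 8 members past the threshold, while the share of all genes moved between 25.8% and 39.6%. There were 4 members without cortex Con 1 (25.8% of all genes), cortex Con 3 (28%) or hippocampus Con 1 (32.3%), 5 without hippocampus Con 2 (26.6%), which was high in choroid plexus genes, and 8 without hippocampus Con 3 (39.6%).

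Further genes of the lineage were set beside the list. Of 30 further oligodendrocyte genes, 20 were higher and 10 lower in cortex IR (median 0.10), 6 of them higher with an unadjusted p under 0.05 (8.16% of all genes) and 0 with an adjusted p under 0.05 in limma. In the hippocampus 23 of the 29 tested were lower (median -0.09), 4 of them lower with an unadjusted p under 0.05 (6.89% of all genes) and 0 with an adjusted p under 0.05. *Olig2*, the lineage transcription factor, was at 9.63 ± 0.63 FPKM in cortex Con and 11.5 ± 0.91 FPKM in IR (0.23 ± 0.07 SE, adjusted p = 0.221), and *Pllp*, the myelin proteolipid plasmolipin, at 21.02 ± 2.96 FPKM in hippocampus Con and 15.5 ± 0.18 FPKM in IR (-0.41 ± 0.09, adjusted p = 0.230). Of 10 genes of precursors and newly formed oligodendrocytes, 7 were lower and 3 higher in IR in each region. Of all genes tested, 50.5% were higher in cortex IR and 52.7% lower in hippocampus IR. The medians of the 10 were -0.03 for the cortex and -0.11 for the hippocampus, and 0 had an adjusted p under 0.05 in limma. An unadjusted p under 0.05 was reached by 1 gene in the cortex, *Gpr17*, which was higher (8.16% of all genes). In the hippocampus it was reached by 2 genes, each lower (6.89%). *Gpr17*, a receptor of newly formed oligodendrocytes, was at 7.01 ± 0.64 FPKM in cortex Con and 8.71 ± 0.74 FPKM in IR (0.28 ± 0.08, adjusted p = 0.192).

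Markers of the tissue around the dissected regions were compared between the same groups. The 10 striatum genes summed to between 79.2 and 85.5 FPKM in cortex Con and between 83.0 and 89.5 FPKM in cortex IR, with the highest sum in IR 2, the library with the highest myelin genes. The 8 thalamus genes summed to between 37.2 and 40.9 FPKM in cortex Con and between 34.9 and 38.8 FPKM in IR, and in the hippocampus to between 46.1 and 58.6 FPKM in Con and between 50.7 and 71.4 FPKM in IR. By library the hippocampus sums were 58.6, 46.1 and 51.6 FPKM in Con and 71.4, 56.6 and 50.7 FPKM in IR. Within each hippocampus group the thalamus sums put the libraries in the same order as the median of the myelin genes did. Con 1 and IR 1 were highest and Con 2 and IR 3 lowest. Single genes did not all follow. In hippocampus Con, the thalamus genes *Prkcd* (7.88, 11.9 and 10.8 FPKM) and *Rora* (3.79, 4.20 and 4.69 FPKM) were both lowest in Con 1. In IR both were highest in IR 1, at 16.2 and 4.09 FPKM. The hippocampus striatum sums were 47.8, 50.6 and 40.5 FPKM in Con and 51.7, 41.2 and 38.9 FPKM in IR. In cortex Con the thalamus sum was highest in Con 3, the lowest library for most myelin genes. In cortex IR it was lowest in IR 2, at 34.9 FPKM. The 12 neuron genes summed to between 3892 and 4431 FPKM in cortex Con and between 4022 and 4423 FPKM in cortex IR. No tested gene of the striatum, thalamus or neuron list had an adjusted p under 0.05 in either region in limma. An unadjusted p under 0.05 was found for 1 neuron gene in the cortex, higher in IR (8.16% of all genes). The part of the choroid plexus or of neighbouring tissue in the differences of the myelin genes was not tested.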

How the data were processed

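RNA sequencing values of 12 libraries, 3 Con and 3 IR from the cortex and as many from the hippocampus, were used as deposited. Per the study's methods and the labels, the authors trimmed reads with FASTX_Trimmer and BBMap, aligned them to mm10 with TopHat and estimated FPKM with Cufflinks, with a geometric normalization in edgeR, so the deposited values are FPKM per gene symbol. The annotation and the strand setting are not given in the sources used here. The labels name Trizol and the methods an RNeasy Lipid kit with poly(A) selection, which was not settled.

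Members and other gene lists were chosen with earlier results of these data known. Groups came from the sample labels. Genes that reached 0.5 FPKM in 3 or more of the fitted libraries were transformed to log2(FPKM + 1) and fitted with limma 3.58.1 in R 4.3.3 (variance trend, robust prior), with Benjamini-Hochberg adjustment over all genes tested. Fold changes are on that scale, which understates low genes. The interaction used all 12 libraries. With 3 against 3 libraries an exact permutation test cannot go below p = 0.1, so none was used. The fit was tested on simulated data. Full values are given for members with an adjusted p under 0.05, otherwise for the 4 with the smallest p in each comparison, for the 5 highest levels, for the 3 largest and 3 smallest spreads, and for the 3 largest differences between regions in each direction; further members were named after their values were seen. Of the other lists, the rule allowed the genes past adjustment or the 2 with the smallest p. Alternatives were no filter, a minimum of 1 FPKM in all libraries, 0.1 as pseudocount, quantile normalization, no trend or robust prior, a replicate block, a single fit of 12 libraries and leaving out each library, and, chosen after seeing the data, leaving out the libraries highest in choroid plexus genes. Interval estimates for counting error need read counts and are not given. Python 3.11.15 and matplotlib 3.10.9 were used for the figures.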

Additional observations from a re-analysis of the deposited data

How the results depend on the processing

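Of the recomputed counts, medians and spreads, 67 stayed on the same side or within the spread between libraries under the alternatives that kept all libraries or left out those high in choroid plexus genes, 7 were weaker and 1 moved. The count of members past an adjusted p in the cortex was 1, and it was 0 without a filter on low values, without trend and robust prior and with all 12 libraries in a single fit. It was 0 to 2 when a library was left out. In the hippocampus that count was 0 to 2 on leaving out a library, and the count past 1.5-fold was 0 without a filter, in the single fit of 12 libraries and without the libraries high in choroid plexus genes, and 0 to 2 on leaving out a library. The count for the regions in Con was 2 without a filter (15.1% of all genes) and 4 to 8 on leaving out a library (25.8% to 39.6%). The cause was not tested, other than that more genes are tested without a filter. Single genes turned sign with quantile normalization (*Qdpr* in the cortex, -0.0146, and the interaction of *Cryab*, 0.0124) and without the libraries high in choroid plexus genes (the interaction of *Opalin*, 0.0358). On leaving out a library, log2 fold changes in the cortex ranged from -0.0331 to 0.101 for *Mog*, from -0.0909 to 0.178 for *Tspan2*, from -0.524 to 0.110 for *Opalin*, from -0.120 to 0.117 for *Qdpr* and from -0.00115 to 0.185 for *Mag*. In the hippocampus *Ermn* ranged from -0.145 to 0.117, and the interaction of *Cryab* from -0.189 to 0.0339. No other fold change or interaction of *Cryab*, *Mog*, *Tspan2*, *Opalin*, *Qdpr*, *Plekhb1*, *Ermn* or *Mag* turned sign.

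Same-numbered Con and IR libraries had correlations of their deviations from the group means of 0.11, -0.11 and -0.04 in the cortex and of -0.39, -0.15 and -0.09 in the hippocampus, so the numbers were not taken to pair samples. With the number as a replicate block, the median spread of the members in the cortex was 0.0898, and 1 member passed adjustment there, *Mobp* in place of *Cryab* (adjusted p = 0.0556). With the block 15 members in the cortex were higher with an unadjusted p under 0.05 (7.58% of all genes). In the hippocampus 6 were lower (4.94%) and 1 higher (5.19%), with 0 past adjustment. The interaction used another block, which took cortex and hippocampus libraries of the same treatment and number as the same mouse. The labels do not state this. Deviations of such libraries correlated at 0.03, -0.03 and 0.15 in Con and at -0.13, -0.02 and 0.13 in IR. With that block 12 members were negative with an unadjusted p under 0.05 (5.76%), with 0 past adjustment. The unknown depth in reads limits what the lowest genes can show.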

Other observations

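Microglia genes, which are not made by oligodendrocytes, were lower in IR in the same libraries. Of 10 such genes, 9 had a lower cortex mean and all 10 a lower hippocampus mean, with median log2 fold changes of -0.23 and -0.36. *Trem2*, a lipid receptor of microglia, fell to 6.45 ± 0.04 FPKM in cortex IR from 8.72 ± 0.47 FPKM in Con (SD, n = 3, adjusted p = 0.0396 from limma), and *Csf1r*, the receptor on which microglia depend, fell in the hippocampus from 22.3 ± 1.83 to 11.99 ± 0.27 FPKM (adjusted p = 0.0126). Their sum was 194 to 209.8 FPKM in cortex Con and 159 to 196 FPKM in cortex IR, where the highest IR sum was that of IR 2, also the library with the highest myelin genes.

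No tested gene of the astrocyte, endothelial, choroid plexus, ependymal or Schwann cell lists had an adjusted p under 0.05 in either region in limma. Many choroid plexus and Schwann cell genes were under the minimum level and had no test, which left 3 of 10 choroid plexus genes and 2 of 6 Schwann cell genes for the cortex, and 6 and 3 for the hippocampus. An unadjusted p under 0.05 was found for 3 astrocyte, 3 endothelial and mural and 1 Schwann cell genes in the cortex. All of these were higher in IR, where 8.16% of all genes were called in that direction. The Schwann cell gene was *Egr2* (log2 fold change 1.32 ± 0.51 SE, adjusted p = 0.346 from limma). *Drp2*, the other gene tested there, was lower (-0.09 ± 0.08). In the hippocampus such a p was found for 4 astrocyte genes, 1 of them higher (7.06% of all genes) and 3 lower (6.89%). It was also found for 1 endothelial gene, which was higher. The 10 endothelial and mural genes divided into 5 higher and 5 lower in cortex IR (median 0.01) and 7 and 3 in hippocampus IR (median 0.11), and the 10 astrocyte genes into 5 and 5 (median 0.02) and 4 and 6 (median -0.04). *Cldn5*, the claudin of the blood-brain barrier, was at 25.7 ± 4.20 FPKM in cortex Con and 35.6 ± 3.25 FPKM in IR (adjusted p = 0.121), and at 21.2 ± 2.55 and 29.3 ± 1.79 FPKM in the hippocampus (adjusted p = 0.218). *Gjb6*, connexin 30 of astrocytes, which couples with the connexins of oligodendrocytes, was at 21.6 ± 0.55 FPKM in cortex Con and 26.1 ± 0.91 FPKM in IR (adjusted p = 0.0719) and at 16.5 ± 1.24 and 19.8 ± 1.28 FPKM in the hippocampus (adjusted p = 0.286). *Gja1*, connexin 43 of astrocytes, was at 79.8 ± 4.34 FPKM in hippocampus Con and 69.2 ± 2.57 FPKM in IR (adjusted p = 0.299).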
